A study of Mus musculus with 10 samples.

Results

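The healthy kidney cortex was described from the 4 mice of the sham group, out of 10 mice in the series, which were taken as members by the words of their labels alone and without any measured value. The study compared sham mice with mice given aristolochic acid, a plant toxin that causes tubular injury and fibrosis, and the 6 treated mice were not analysed here. The sham mice were wild-type (WT) male C57BL/6 mice, 8 weeks old at the start, that received PBS in place of the toxin, and their kidney cortex was taken at day 28. Each mouse gave its own library and carries a tag, B607, B634, B636 or H249, and values per mouse are given in this order throughout. The tags are names of mice only, and no batch is given with them.

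The value of each gene is its FPKM, the fragments per kilobase of transcript and per M mapped fragments, so that levels can be compared between genes of different length. Each library listed the same 21792 genes. The depth recovered from the lowest values was 17.5, 15.8, 16.5 and 16.5 M fragments. With 4 mice of 1 group there is no contrast to test, so the spread between mice is given in place of p-values. This spread is between mice of 1 group and also holds all that differed in their dissection and library preparation.

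The libraries differed in features that span many genes. In B607, genes with short transcripts were low and genes with long transcripts high. The mitochondrially encoded genes took the largest share of the values in B634, followed by B636. Levels that differ between mice are therefore given as deposited and, where stated, after length matching, in which each nuclear gene was divided in each mouse by the median deviation of all protein-coding genes in the same class of transcript length.

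Over the 9740 nuclear protein-coding genes at 1 FPKM or more, B607 was highest in 53.6%, B634 in 5.82%, B636 in 16.2% and H249 in 24.3%, and lowest in 19.0%, 63.2%, 12.9% and 5.00%. After length matching the mice were highest in 36.2%, 26.9%, 21.1% and 15.8% and lowest in 35.0%, 29.4%, 20.3% and 15.25%. Counts of genes that were highest or lowest in 1 mouse are to be read against these shares.

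The kidney cortex holds the glomeruli, where podocytes filter the blood, and the convoluted parts of the nephron. The proximal tubule makes up most of the cortex and takes back most of the filtered salt, phosphate, glucose and amino acids, at the cost of a high mitochondrial activity. The thick ascending limb, the distal convoluted tubule, the connecting tubule and the collecting duct then set the final salt, calcium, acid and water content of the urine. Each segment is known by transporters that it alone or mainly makes, which serve here as its markers.

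Of the 21792 genes, 19427 were above 0 in at least 1 sham mouse, 15499 were above 0 in all 4, and 2365 were listed at 0 in all 4. On average over the mice, 10274 genes reached 1 FPKM, 2950 reached 10 FPKM, 376 reached 100 FPKM and 33 reached 1000 FPKM. The transcriptome was thus very uneven: the 20 genes with the highest mean held 50.7%, 75.1%, 67.3% and 59.0% of the FPKM total of the 4 mice. Among the 17047 nuclear protein-coding genes, 192 held 50% of the summed mean FPKM and 3417 held 90%.

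The genes at the top of the ranking were those of the mitochondrial genome, which encodes 13 subunits of the respiratory chain. They held 39.5%, 61.4%, 54.0% and 46.2% of the FPKM total, or 50.3% ± 9.51 (SD, n = 4). With FPKM multiplied by transcript length, which weights genes by fragments, the shares were 21.4%, 48.0%, 38.2% and 29.4%. The share was highest in B634 and lowest in B607 on both scales.

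Within the mitochondrial genome the cytochrome oxidase subunits led. Mt-Co1, the catalytic subunit, was the most abundant gene of the cortex, at 37245, 96317, 76818 and 54790 FPKM. Mt-Co3 followed with a mean of 45187 ± 21179 FPKM and mt-Co2 with 39087 ± 17111 FPKM. All 13 genes were highest in B634, and 11 of 13 were lowest in B607.

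The complex I subunits ranged from mt-Nd1, with a mean of 23724 ± 9051 FPKM, to mt-Nd6, with 216 ± 42.3 FPKM. Mt-Nd6, the one protein gene read from the light strand of the genome, was the lowest in every mouse, at 216, 257, 234 and 158 FPKM. Mt-Nd3 varied most, from 3153 FPKM in B607 to 18265 FPKM in B634. Mt-Atp8 and mt-Atp6 overlap on 1 transcript, and their means of 30399 and 3863 FPKM cannot be separated with certainty, because the division of shared fragments is not described.

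**Figure D1:**
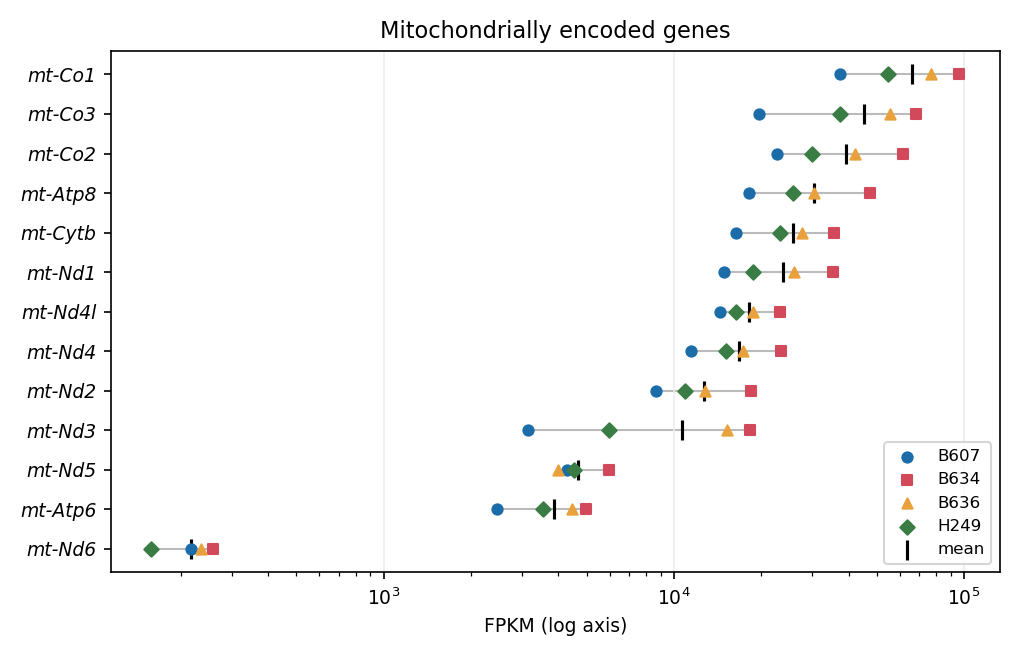
FPKM of the 13 mitochondrially encoded protein genes on a log axis, with 1 symbol for each of the 4 mice, a grey line for the range and a black tick for the mean. B634 is the rightmost symbol in all 13 genes, and mt-Nd6 lies below all other genes, between 158 and 257 FPKM.

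A further 11 nuclear pseudogenes were at least 90% identical to mitochondrial genes over at least 80% of their length. For the copies with an identity of about 100%, fragments cannot be told apart from mitochondrial ones with certainty. They held 3.77%, 9.64%, 6.75% and 4.61% of the FPKM total. The most abundant were Gm28437, a copy of mt-Co3 with an identity of 100%, at 3067, 16113, 10149 and 5894 FPKM, and Gm29216, a copy of mt-Co1 with an identity of 99.8%, at 3212, 13665, 9083 and 4751 FPKM. Both lie in a cluster on chromosome 1 (GRCm38), Gm28437 at chr1:24613189-24613971 and Gm29216 at chr1:24615706-24616197. The copies of lower identity were less abundant, down to Gm13341, 95.9% identical to mt-Co2, at 0.684 ± 0.400 FPKM. Of the 11 copies, 7 were highest in B634 and 10 lowest in B607, and 8 and 5 after length matching.

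Leaving the mitochondrial genome aside, the most abundant gene was Kap, the kidney androgen-regulated protein of the proximal tubule. Kap (ENSMUSG00000032758, chr6:133849851-133853762, minus strand, GRCm38) was at 16685, 33359, 23773 and 26596.5 FPKM, a mean of 25104 ± 6905 FPKM and rank 6 of all genes. It was highest in B634 on both scales, and lowest in B607 as deposited but in B636 after length matching, at 21804, 31890, 20779 and 24471.

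Gpx3 (ENSMUSG00000018339, chr11:54902453-54910377, plus strand, GRCm38), which encodes the glutathione peroxidase that the proximal tubule secretes into the plasma, came next with a mean of 12030 ± 7259 FPKM. Its values were 13618, 1469, 17891 and 15141 FPKM, so that 3 mice lay close together and B634 was 9.27-fold below the lowest of them on the scale of FPKM + 0.1. No other gene listed in the libraries overlaps Gpx3, and genes not listed were not searched. The gap remained after length matching, at 13208, 1713, 17921 and 13321.

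Among the next nuclear protein-coding genes were Fth1, the ferritin heavy chain (mean 4636 ± 872 FPKM), Klk1, a kallikrein of the connecting tubule (3075 ± 659 FPKM), Fxyd2, the small subunit that modulates the sodium pump (2978 ± 631 FPKM), and Slc34a1, the main phosphate transporter of the brush border (2008 ± 628 FPKM). S100g, the calcium-binding calbindin of the distal nephron (1499 ± 596 FPKM), Cox8a, a subunit of cytochrome oxidase (1103 ± 160 FPKM), Acy3, which deacetylates mercapturic acids (1047 ± 96.5 FPKM), Ftl1, the ferritin light chain (1035 ± 299 FPKM), and Miox, which starts the breakdown of inositol (1001 ± 110 FPKM), also belonged to the 12 nuclear protein-coding genes that averaged 1000 FPKM or more.

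The rest of the 20 were Cox6b1 (943 ± 173 FPKM), Umod (882.5 ± 572 FPKM), Sod1 (824 ± 103 FPKM), Cyp4b1 (823 ± 430 FPKM), Cd63 (792 ± 147 FPKM), Cox6a1 (779 ± 167 FPKM), Cndp2 (768 ± 165 FPKM) and Ttc36 (764 ± 60.4 FPKM). Sod1 removes superoxide, Cyp4b1 oxidises fatty acids and foreign compounds, Cd63 is a membrane protein of late endosomes, Cox6b1 and Cox6a1 belong to cytochrome oxidase, and Cndp2 is a dipeptidase. Of the 20, 11 were lowest in B607 and 8 in B634, and 8 and 5 after length matching. Over all nuclear protein-coding genes these shares were 19.0% and 63.2% as deposited and 35.0% and 29.4% after it.

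**Figure D2:**
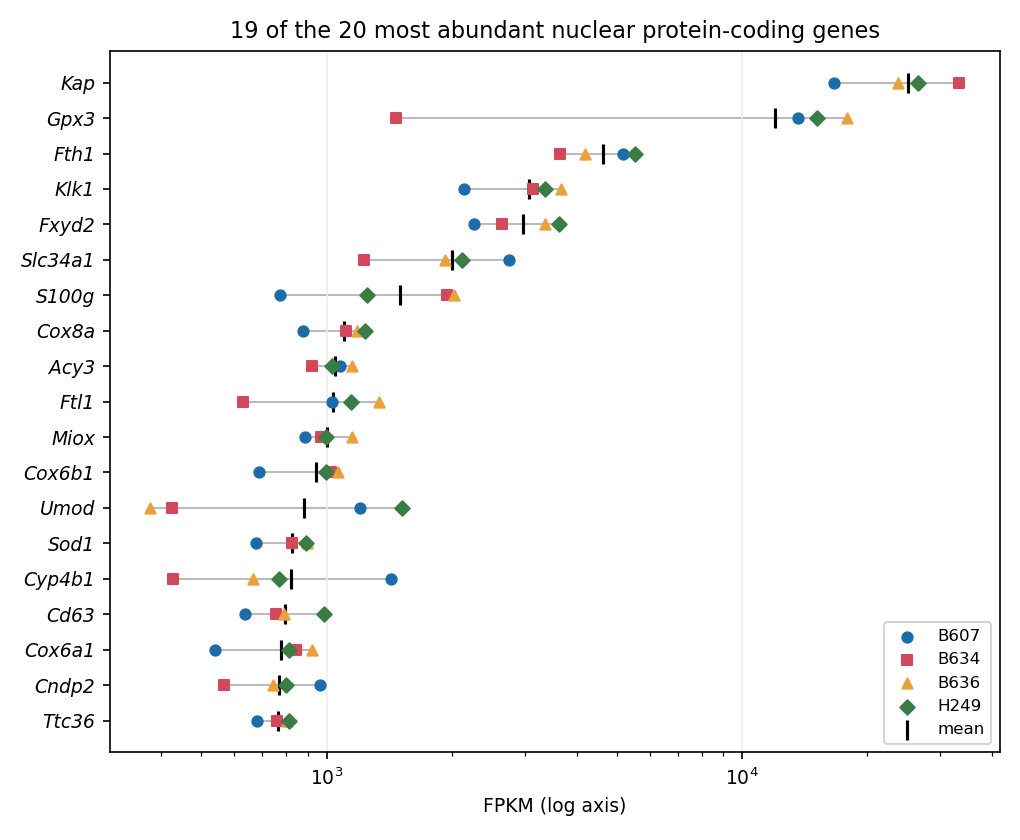
FPKM of 19 of the 20 most abundant nuclear protein-coding genes on a log axis, with 1 symbol for each of the 4 mice, a grey line for the range and a black tick for the mean. Gpx3 has 1 symbol, B634, far to the left at 1469 FPKM, while Umod splits into B607 and H249 at 1206 and 1523 FPKM and B634 and B636 at 424 and 376 FPKM.

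Some abundant entries are near-copies of other genes and are uncertain. The pseudogene Tpt1-ps3 was listed at 2558 ± 664 FPKM while its parent Tpt1 was at 21.6 ± 5.53 FPKM, and Gm5424, a processed copy of the urea cycle gene Ass1, was at 1083 ± 393 FPKM beside Ass1 at 488 ± 94.6 FPKM. Ftl1, at 1035 ± 299 FPKM, likewise has a copy, Ftl1-ps1, listed at 682 ± 127.5 FPKM. Gapdh and Ppia, which have many processed copies in the mouse genome, were at 25.1 ± 12.8 and 1.35 ± 0.386 FPKM, and these values are likewise uncertain. Of the other reference genes, Actb was at 109 ± 17.2 FPKM, Hprt at 53.3 ± 6.04 FPKM and B2m at 398 ± 69.0 FPKM.

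Markers of the main tubule segments were abundant. Slc34a1 of the proximal tubule was at 2754, 1231, 1924 and 2124 FPKM, Umod of the thick ascending limb at 1206, 424, 376 and 1523 FPKM, Slc12a3 of the distal convoluted tubule at 369, 93.7, 133 and 156 FPKM, and Aqp2 of the collecting duct at 75.7, 84.7, 82.2 and 113 FPKM. Slc34a1 and Slc12a3 were highest in B607 and lowest in B634, Umod was high in B607 and H249, and Aqp2 stayed within a narrow range. The genes lie on GRCm38 at chr13:55398187-55415592 (Slc34a1, plus strand), chr7:119462711-119479282 (Umod, minus strand), chr8:94329201-94366214 (Slc12a3, plus strand) and chr15:99579055-99584547 (Aqp2, plus strand).

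The 80 genes of 11 lists of nephron markers, of which 70 had a mean of at least 1 FPKM, held 14.6% ± 2.01 of the nuclear FPKM total. Of this, the 27 genes of the 3 proximal lists held 10.1%, 14.7%, 11.5% and 12.6% of the nuclear total. These sums count RNA of chosen genes and not cells, and Kap alone makes up most of them. In bulk tissue, fewer cells of a type and less RNA per cell cannot be told apart.

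In the proximal tubule, all 27 listed genes passed a mean of 1 FPKM. Beside Slc34a1, the early S1 and S2 segments were marked by Slc22a8 and Slc22a6, which take organic anions from the blood (303 ± 61.1 and 287 ± 82.3 FPKM), and by Slc5a2, which takes back glucose (85.5, 79.9, 116 and 84.4 FPKM). Slc5a12, a lactate carrier, and Slc2a2, the exit route of glucose, were low at 7.87 ± 2.74 and 11.3 ± 6.90 FPKM. Of the 8 genes of this list, 5 were highest in B607 and 3 in B636, also after length matching. Over all nuclear protein-coding genes these shares were 53.6% and 16.2% as deposited and 36.2% and 21.1% after it.

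Genes of the whole proximal tubule included Slc27a2, a fatty acid carrier and acyl-CoA synthetase, at 620, 592, 599 and 615 FPKM, the endocytic receptors Lrp2 (megalin) and Cubn (cubilin), at 101 ± 62.3 and 23.7 ± 10.7 FPKM, and Amn, their partner, at 99.3 ± 15.3 FPKM. Lrp2 ranged from 46.1 FPKM in B634 to 189 FPKM in B607. Aqp1, the water channel, was at 306, 66.8, 97.1 and 218 FPKM. Slc27a2 differed little between the mice, whereas Aqp1 and Lrp2 were highest in B607 and lowest in B634.

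The last segment, S3, was marked by Napsa, an aspartic protease (388, 291, 277 and 696 FPKM), and Slc7a13, a transporter of cystine and acidic amino acids (229, 110, 90.6 and 189 FPKM). Slc22a19, an organic anion carrier, was at 3.87, 2.29, 1.85 and 12.02 FPKM, and Cyp7b1, an oxysterol hydroxylase, at 8.86, 7.52, 3.93 and 23.2 FPKM. All 7 genes of the list were highest in B607 (4) or H249 (3), and all were lowest in B636 (5) or B634 (2). Of all nuclear protein-coding genes, 53.6% and 24.3% were highest in B607 and H249, and 12.9% and 63.2% lowest in B636 and B634.

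On the log2 scale, the mean deviation of the S3 genes from the average of the 4 mice was 0.62, -0.58, -0.68 and 0.64, and after length matching 0.35, -0.28, -0.60 and 0.53. The counts of highest and lowest mice were unchanged by length matching in this list. The S1 and S2 list did not share the pattern, with 0.45, -0.34, 0.06 and -0.17 as deposited and 0.11, -0.01, 0.16 and -0.26 after length matching. After length matching the mean deviation of H249 was thus the highest of the 4 mice for S3 genes and the lowest for S1 and S2 genes, while by counts more S3 genes were highest in B607 (4) than in H249 (3), and of the S1 and S2 genes 3 were lowest in H249, 3 in B634 and 2 in B607.

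The thick ascending limb, which takes up salt without water, showed the same order of mice. Umod, uromodulin, the most abundant protein of urine, led its 8 genes, all above 1 FPKM, followed by the potassium channel Kcnj1 (83.9, 35.1, 37.7 and 60.3 FPKM), Egf (86.9, 27.1, 27.6 and 69.3 FPKM), the paracellular pore Cldn10 (44.3 ± 9.27 FPKM) and Slc12a1, the furosemide-sensitive cotransporter (45.3, 31.9, 25.3 and 46.1 FPKM). Of the 8 genes, 5 were highest in H249 and 3 in B607, and 5 were lowest in B636 and 3 in B634. Over all nuclear protein-coding genes these shares were 24.3% and 53.6%, and 12.9% and 63.2%. Their mean deviation was 0.42, -0.43, -0.54 and 0.54, and 0.17, -0.14, -0.46 and 0.44 after length matching.

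The thin limb was nearly absent: 1 of its 4 genes averaged 1 FPKM or more, and the inner medullary urea transporter Slc14a2 was listed at 0 in 3 mice and at 0.018 FPKM in H249, under the FPKM that 3 fragments give in any of the libraries. The macula densa genes Nos1, Pappa2 and Ptgs2 had means from 0.0522 to 0.0666 FPKM. Ren1, the renin of the juxtaglomerular cells beside it, was at 105, 17.9, 59.4 and 109 FPKM, lowest in B634.

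In the distal convoluted tubule, Slc12a3, the thiazide-sensitive cotransporter, was followed by Pvalb (23.6 ± 6.70 FPKM), the kinase Wnk4 (22.3 ± 4.76 FPKM), Klhl3 (4.203 ± 2.96 FPKM) and the magnesium channel Trpm6 (2.46 ± 1.19 FPKM). Of these 5 genes, 4 were highest in B607, and 3 after length matching, beside 53.6% and 36.2% of all nuclear protein-coding genes. Pvalb, with a short transcript, was lowest in B607 as deposited and in B636 after length matching. In the connecting tubule the short genes Klk1 and S100g held nearly all of the 4678 ± 1139 FPKM of the list and were lowest in B607, while Calb1 (97.5, 39.8, 33.5 and 70.5 FPKM), Trpv5 (10.1, 3.51, 3.59 and 4.83 FPKM) and the sodium channel subunits Scnn1b and Scnn1g (12.6 ± 4.10 and 17.7 ± 6.53 FPKM) were highest there.

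The calcium exchanger Slc8a1, whose longest annotated transcript has 18464 bases, was at 23.3, 0.946, 1.70 and 2.71 FPKM, 8.35-fold higher in B607 than in the next mouse on the scale of FPKM + 0.1. Length matching reduced the mean deviation of the distal convoluted tubule in B607 from 0.62 to 0.29, and that of the connecting tubule from 0.64 to 0.53.

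In the collecting duct, the principal cells were marked by Hsd11b2, which shields the mineralocorticoid receptor from glucocorticoids (125 ± 21.1 FPKM), Aqp2 (89.0 ± 16.7 FPKM) and Aqp3 (44.4 ± 20.6 FPKM), and the vasopressin receptor Avpr2 was at 3.003 ± 0.607 FPKM. The intercalated cells, which move acid and bicarbonate, were marked by the proton pump subunit Atp6v1g3 (36.3 ± 7.97 FPKM), pendrin, Slc26a4 (24.8 ± 9.04 FPKM), Aqp6 (20.6 ± 5.55 FPKM) and the transcription factor Foxi1 (19.5 ± 1.95 FPKM). All 9 intercalated genes and 6 of 7 principal genes passed 1 FPKM. The principal cell list held 0.0990% ± 0.0145 of the nuclear total and the intercalated cell list 0.0555% ± 0.00793. As deposited, the mean deviation was -0.01, -0.28, 0.08 and 0.21 for the principal and 0.21, -0.25, 0.09 and -0.05 for the intercalated cell list. Of the intercalated genes, 6 of 9 were highest in B607 and 6 lowest in B634, near the 53.6% and 63.2% of all nuclear protein-coding genes. After length matching none of the mean deviations of either list was beyond -0.17 or 0.15. Single members varied more, with Aqp3 at 71.1, 23.4, 34.5 and 48.5 FPKM and Slc26a4 at 38.3, 19.5, 19.97 and 21.3 FPKM.

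The glomerulus was represented by podocyte genes, of which 7 of 10 passed 1 FPKM. The slit diaphragm gene Nphs1 (nephrin) was at 6.18, 4.03, 4.42 and 5.38 FPKM, a mean of 5.00 ± 0.971 FPKM, and Podxl, which the endothelium also makes, was at 30.2 ± 15.8 FPKM. Wt1, the transcription factor, was low at 0.393 ± 0.179 FPKM. The list held 0.0345% ± 0.01004 of the nuclear total.

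**Figure D3:**
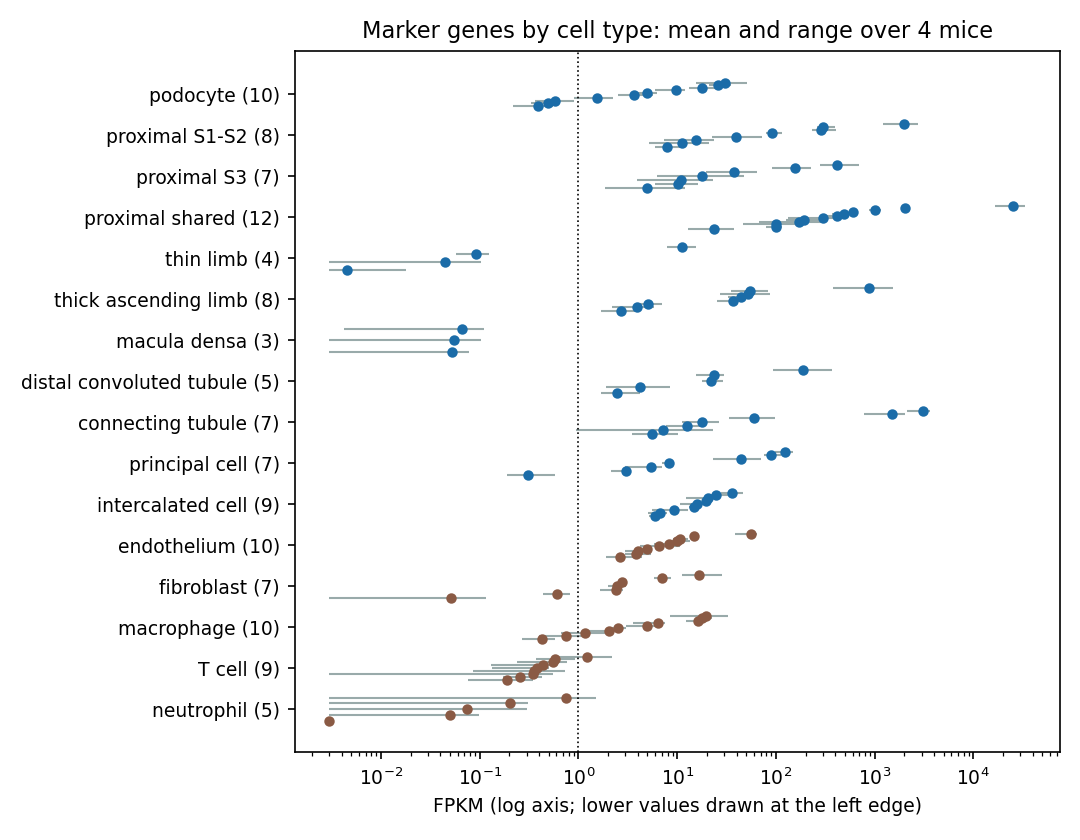
Mean FPKM (points) and range over the 4 mice (lines) of every listed marker gene, by cell type, on a log axis with a dotted line at 1 FPKM. Blue points are nephron lists and brown points stromal and immune lists, and the number of genes is in brackets. Proximal genes reach furthest to the right, with Kap at 25104 FPKM, while macula densa, T cell and neutrophil genes lie mostly left of the dotted line.

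Transporters of the solute carrier families were the next layer of the cortex. Of 369 listed genes, 234 had a mean of at least 1 FPKM, 104 of at least 10 FPKM and 18 of at least 100 FPKM. Together they held 4.30%, 2.32%, 2.86% and 3.27% of the nuclear FPKM total, highest in B607 and lowest in B634. Of the 234 genes, 156 were highest in B607 and 172 lowest in B634, and 109 and 106 after length matching. Over all nuclear protein-coding genes the shares were 53.6% and 63.2% as deposited and 36.2% and 29.4% after it.

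By level, Slc34a1 led, followed by Slc27a2 at 606 ± 13.2 FPKM and by Slc22a12, the urate exchanger, at 789, 336.5, 434 and 559 FPKM. The organic anion and cation carriers of the Slc22 family made up 6 of the 11 highest, among them Slc22a8, Slc22a6, Slc22a18 (224 ± 18.1 FPKM), and Slc22a2 (174 ± 22.1 FPKM) beside Slc22a12. Slc9a3r1, at 186 ± 33.2 FPKM, carries a transporter's name but encodes a scaffold protein of the brush border.

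The partner of basic amino acid and cystine transport Slc3a1 (168 ± 81.2 FPKM), the phosphate and urate carrier Slc17a1 (162 ± 46.2 FPKM), the exporter of organic cations Slc47a1 (132 ± 15.1 FPKM), the dicarboxylate carrier Slc13a3 (101 ± 28.8 FPKM), and Slc6a18, a carrier of neutral amino acids (77.0 ± 22.1 FPKM), followed. The mitochondrial ADP/ATP carriers Slc25a5 and Slc25a4 were at 281 ± 68.2 and 122 ± 20.2 FPKM and Slc37a4, the glucose 6-phosphate carrier of the endoplasmic reticulum, at 102 ± 22.1 FPKM. The median CV of the 234 genes was 30.1%, above the 23.9% of nuclear protein-coding genes as a whole.

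The sodium pump, which powers these carriers, was led by its small modulator Fxyd2, with the beta subunit Atp1b1 at 504.9, 214, 248.5 and 398 FPKM. Atp1b1 was highest in B607 and lowest in B634, while Fxyd2 was lowest in B607. Of 10 aquaporins, Aqp1, Aqp2, Aqp3 and Aqp6 were above 10 FPKM, Aqp7 and Aqp11 were at 4.31 ± 0.963 and 4.26 ± 0.744 FPKM, and Aqp5 and Aqp9 were near 0.

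Genes of energy metabolism were abundant. Gluconeogenesis had all 5 listed genes above 100 FPKM, with Pck1, its entry enzyme, at 294, 550, 436 and 385 FPKM, Fbp1 at 509, 134, 189 and 364 FPKM, G6pc at 195 ± 89.3 FPKM and Pcx at 148 ± 54.9 FPKM among them. Hk2, a glycolytic hexokinase, was at 0.0527 ± 0.0258 FPKM, and Hk1 at 4.69 ± 2.92 FPKM. The lactate dehydrogenase subunits Ldhb and Ldha were at 526 ± 144 and 109 ± 46.7 FPKM. Fatty acid oxidation, the main fuel of this segment, had 9 of 11 genes above 10 FPKM, led by the peroxisomal Ehhadh (174 ± 77.7 FPKM), with Cpt1a, the gate of mitochondrial import, at 129, 41.6, 44.8 and 63.5 FPKM. Of these 11 genes 9 were highest in B607, and 8 after length matching, beside 53.6% and 36.2% of all nuclear protein-coding genes.

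The nuclear genes of the respiratory chain, 79 of 80 of which passed 1 FPKM, held 3.80%, 4.32%, 4.51% and 4.38% of the nuclear total. Complex IV held 1.48% ± 0.165, complex I 1.31% ± 0.196, complex V 0.680% ± 0.0365, complex III 0.589% ± 0.0355 and complex II, succinate dehydrogenase, which has no mitochondrially encoded subunit, 0.190% ± 0.0503. The ratio of mitochondrially encoded to nuclear respiratory chain FPKM was 17.2, 36.8, 26.1 and 19.6. The ratio had a CV of 35.2% and the nuclear share a CV of 7.39%. The nuclear total includes the nuclear copies of mitochondrial genes, which made up 6.231%, 24.98%, 14.68% and 8.574% of it. The nuclear share and its CV therefore depend on these copies, whereas the ratio does not use this total. Without the copies the mean nuclear share was 4.971% in place of 4.252%. Leaving the copies out raises the nuclear share most in B634, where they took the largest part. The order of the mice and the CV can therefore differ without them, and neither was computed.

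Complex I subunits, mostly short, were lowest in B607 in 32 of 36 cases, and in 21 after length matching, beside 19.0% and 35.0% of all nuclear protein-coding genes. The 75 cytosolic ribosomal proteins at 1 FPKM or more, also short, were lowest in B607 in 50 cases, and in 41 after length matching. Of the 4 subunits of complex II, 3 were lowest in B634 as deposited, and 2 in B607 and 2 in B634 after length matching. The ribosomal proteins held 1.94%, 2.18%, 2.36% and 2.38% of the nuclear total, which again includes the nuclear copies of mitochondrial genes.

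Defence against superoxide and peroxides was marked by Gpx3 as above and by Gpx1 (200, 409, 548 and 692 FPKM), Sod1, Prdx5 (369 ± 53.9 FPKM) and catalase, Cat (327 ± 52.3 FPKM). Among the genes linked to male hormones, Odc1, ornithine decarboxylase, was at 650, 172, 225 and 240 FPKM, and Slco1a1 at 21.1 ± 8.72 FPKM. The Y-linked genes Ddx3y and Eif2s3y were present in all 4 mice, with Ddx3y at 2.52, 2.60, 2.44 and 2.45 FPKM.

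The immune genes were low. The 57 listed genes of 9 immune lists summed to 417, 292, 450 and 467 FPKM, or 0.146% ± 0.0272 of the nuclear total, and 22 passed 1 FPKM. Genes of antigen presentation made up most of it: Cd74, the invariant chain, was at 119, 91.8, 120 and 125 FPKM, and H2-Eb1, H2-Ab1 and H2-Aa had means of 76.5 ± 13.6, 43.7 ± 9.95 and 38.9 ± 5.92 FPKM. Their master regulator Ciita was at 0.452 ± 0.334 FPKM.

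Macrophage genes came next, with 8 of 10 above 1 FPKM. Lyz2, lysozyme, was at 18.1, 8.42, 32.8 and 18.7 FPKM, the complement genes C1qa and C1qb were at 17.9 ± 3.34 and 16.4 ± 3.07 FPKM, Csf1r, the receptor of the growth factor of macrophages, was at 6.22, 3.06, 4.38 and 5.96 FPKM and Adgre1 (F4/80) at 2.18, 0.664, 0.791 and 1.07 FPKM. All 8 were lowest in B634, and 7 after length matching, against the 63.2% and 29.4% of all nuclear protein-coding genes that were lowest there before and after it. The summed macrophage values were 74.9, 47.8, 82.3 and 82.7 FPKM.

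Genes of all leukocytes were also low, with 5 of 6 above 1 FPKM, led by Cd52 at 4.83 ± 1.18 FPKM, and Ptprc (CD45) at 0.266 ± 0.0681 FPKM. Most genes of lymphocytes and all listed genes of granulocytes averaged below 1 FPKM. The T cell gene Cd3e was at 0.436 ± 0.210 FPKM and 1 of 9 T cell genes, Trbc2, passed 1 FPKM. Of the 8 B cell and plasma cell genes 3 passed 1 FPKM, the immunoglobulin chains Igkc, at 27.7, 9.84, 55.7 and 30.0 FPKM, and Ighm, with a mean of 2.81 FPKM, and Jchain, which joins them, with a mean of 1.10 FPKM, while the B cell membrane gene Ms4a1 was at 0.0412 FPKM. With Igkc this list summed to a mean of 35.7 FPKM, above the 11.9 FPKM of the list of all leukocytes. None of the dendritic cell, NK cell, neutrophil or mast cell genes with a value passed 1 FPKM on average. Only 5 of 8 neutrophil genes and 1 of 5 mast cell genes had a value. The neutrophil genes S100a8 and S100a9 were listed at 0 in B607 and at up to 0.308 and 1.5 FPKM in H249. Ly6g and the mast cell gene Cpa3 were at 0 in all 4 mice, which allows up to 0.201 and 0.131 FPKM.

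In the stroma, all 10 endothelial genes passed 1 FPKM, from Plvap, of fenestrated vessels, at 55.8 ± 11.8 FPKM to Flt1 at 2.63 ± 1.20 FPKM. Their mean deviation was 0.22, -0.35, -0.04 and 0.17 as deposited, with 9 of 10 genes lowest in B634. After length matching it stayed between -0.06 and 0.07, with 2 genes lowest there. Of all nuclear protein-coding genes, 63.2% were lowest in B634 as deposited and 29.4% after it. Smooth muscle and pericyte genes were led by Acta2 (16.9, 20.8, 31.8 and 25.4 FPKM) and Tagln (14.5 ± 2.87 FPKM). Fibroblast genes were low, with Fbln5 at 11.2, 28.3, 15.3 and 12.7 FPKM, Dcn at 7.08 ± 1.15 FPKM and the collagens Col1a1 and Col3a1 at 2.75 ± 0.188 and 2.41 ± 0.523 FPKM. All 5 fibroblast genes above 1 FPKM were highest in B634, as were 5.82% of all nuclear protein-coding genes. After length matching all 5 were again highest there, beside 26.9% of all nuclear protein-coding genes, and the mean deviation was larger, at -0.68, 0.70, 0.09 and -0.11 against -0.29, 0.36, -0.04 and -0.04 as deposited.

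Globin and other erythroid genes were low and uneven. The globin gene Hba-a1 was at 0.910, 3.12, 9.37 and 9.10 FPKM and Hbb-bs at 1.52, 1.78, 4.52 and 10.95 FPKM. The erythroid list had a mean deviation of -1.69, -0.68, 0.84 and 1.53, and of -1.34, -0.73, 0.66 and 1.42 after length matching. Whether this RNA came from blood left in the tissue was not tested. The part of blood in the immune values was not tested. Genes of neighbouring tissues were low: none of the 16 listed genes of fat, adrenal cortex, skeletal muscle and urothelium reached a mean of 1 FPKM, and the muscle genes Ckm and Acta1 and the adrenal genes Cyp11b1 and Cyp11a1 were at 0 in all 4 mice, which for Ckm allows up to 0.0690 FPKM.

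Of 8 genes linked to tubular injury, 3 had a mean of at least 1 FPKM, Spp1, Clu and Vcam1, which healthy kidney cells also make. Havcr1 (KIM-1) was at 0.0337 ± 0.0302 FPKM, under the value of 3 fragments in each mouse, Lcn2 (NGAL) at 0.274 ± 0.169 FPKM and Krt20 at 0.132 ± 0.116 FPKM, whereas Spp1, osteopontin, was at 144, 109, 134 and 196 FPKM and Clu, clusterin, at 43.9 ± 10 FPKM. Vcam1, an adhesion molecule, was at 1.03 ± 0.166 FPKM. Of the proliferation genes only Pcna (5.93 ± 1.72 FPKM) passed 1 FPKM, and Mki67 was at 0.346 ± 0.0758 FPKM. Interferon response genes were highest in H249 in 5 of 6 cases, and in 5 after length matching, beside 24.3% and 15.8% of all nuclear protein-coding genes. Among them Bst2 was at 20.2, 14.5, 20.4 and 34.0 FPKM.

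Genes that respond to handling and time of day were also compared. The immediate early genes Fos and Egr1 were at 0.491 ± 0.219 and 0.537 ± 0.112 FPKM, with all 4 mice under 1 FPKM, while Zfp36 and Jun were at 14.7 ± 1.59 and 11.2 ± 2.71 FPKM. Of the heat shock genes, Hspa1a was at 21.9, 13.04, 10.01 and 4.35 FPKM and Hspa1b at 31.8, 13.2, 9.38 and 6.49 FPKM, both highest in B607 and lowest in H249, while the constitutive Hspa8 was at 269 ± 28.5 FPKM. Clock genes whose peaks lie at opposite times, Dbp and Arntl, were at 0.934 ± 0.204 and 8.99 ± 3.54 FPKM, with Dbp below Arntl in all 4 mice.

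**Figure D4:**
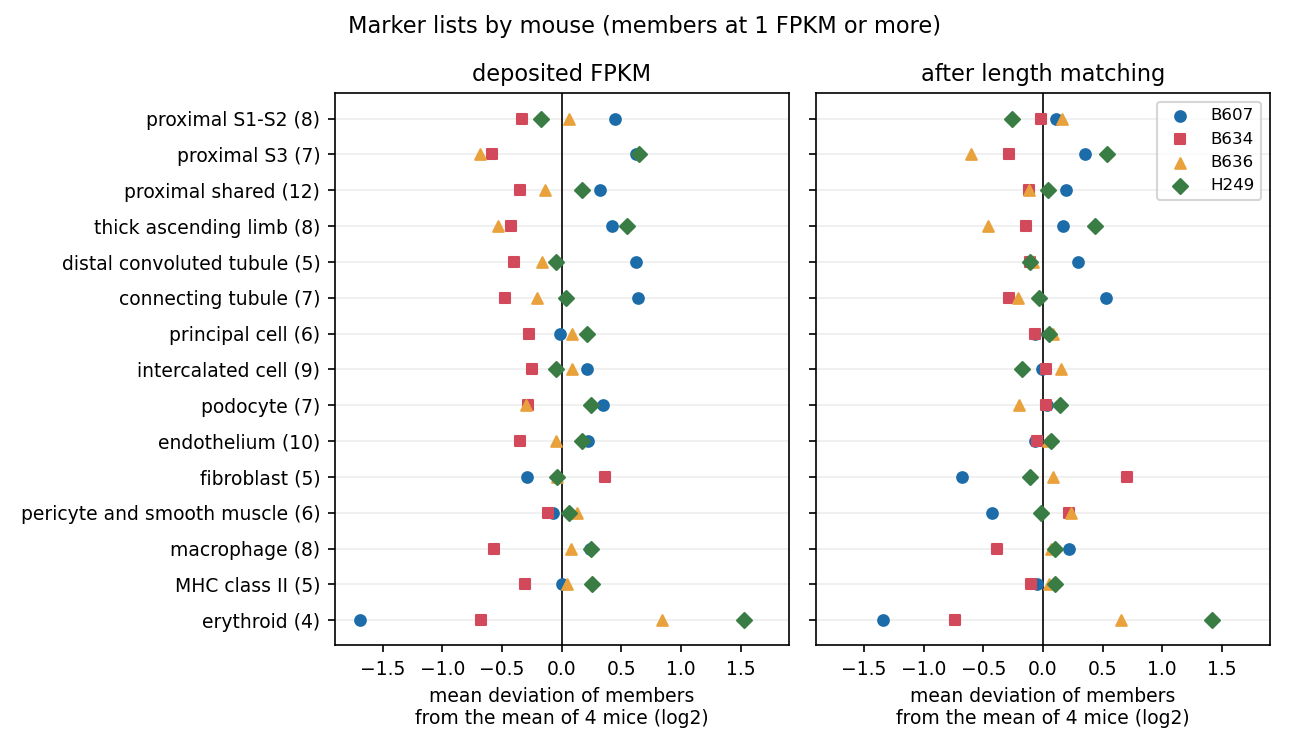
Mean deviation on the log2 scale of the members of 15 marker lists from the average of the 4 mice, with 1 symbol per mouse, from deposited FPKM (left) and after length matching (right), and the number of members at 1 FPKM or more in brackets. After length matching most lists draw in towards 0, while S3 and the thick ascending limb keep H249 on the right and B636 on the left, fibroblast genes keep B634 on the right, and erythroid genes run from -1.34 in B607 to 1.42 in H249.

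The spread between the mice was moderate for most genes. Over the 10274 genes that averaged 1 FPKM or more, the median CV was 24.3%, with quartiles of 15.95% and 36.6%. A CV of at least 50% was found for 1116 genes (10.9%) and of under 10% for 809 genes (7.87%). Among nuclear protein-coding genes the median fell with level, from 24.98% at 1 to 10 FPKM to 22.2% at 10 to 100 FPKM and 20.3% at 100 FPKM or more.

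Counting error can be estimated where fragments can be recovered. In the 930 nuclear protein-coding genes with 1 annotated transcript and a mean of at least 1 FPKM, the median gene had 261 fragments per mouse. The CV that counting alone gives such a gene had a median of 6.47%, and the observed CV a median of 25.3%. The observed CV holds counting error together with all that differed between the mice.

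The deviation of each mouse was also examined by transcript length. The median deviation of nuclear protein-coding genes in B607 rose from -0.53 on the log2 scale in the 36 genes of up to 500 bases to 0.61 in the 436 genes of 8001 bases or more. In B634 it ran the other way, from 0.27 to -0.44, in B636 from 0.30 to -0.16, and in H249 it stayed between -0.07 and 0.18. Length matching brought the median CV of the 9740 nuclear protein-coding genes from 23.9% to 17.9% and the number with a CV of at least 50% from 1015 to 473. As length matching also centres each mouse, part of this drop needs no length term: scaling to the median of ratios, 1 factor per mouse, gave 20.2% and 625 genes.

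Without B607, 10069 genes averaged 1 FPKM or more in the remaining mice. Their median CV was 18.2%, and 482 of them had a CV of at least 50%. Without H249 there were 1767 such genes among 10236. The level of the typical nuclear gene also differed between mice, with a median deviation of 0.24, -0.28, -0.06 and 0.11 as deposited. Scaling to the median of ratios brought these medians to 0.04, -0.01, -0.03 and -0.00101. Scaling every mouse to the same FPKM total, which the mitochondrial genes dominate, widened them to 0.60, -0.61, -0.18 and 0.20, and scaling to the same nuclear total left them at 0.30, -0.27, -0.09 and 0.07. The mouse that is highest or lowest for a group of long or short genes is to be read against these medians.

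**Figure D5:**
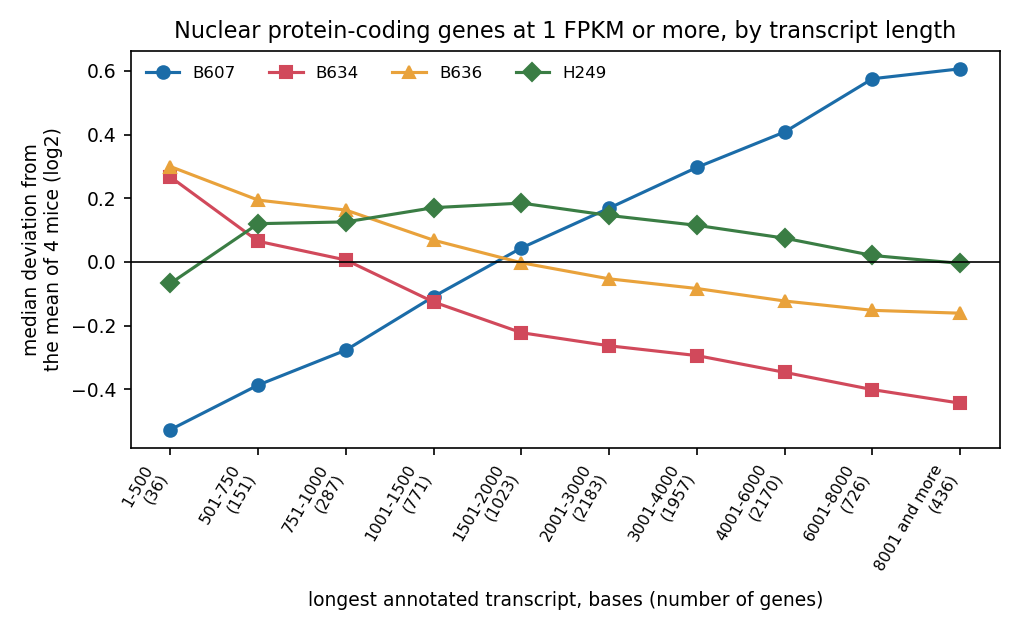
Median deviation from the average of the 4 mice, on the log2 scale, of nuclear protein-coding genes at 1 FPKM or more in 10 classes of longest annotated transcript, with the number of genes in brackets and 1 line per mouse. The line of B607 climbs from -0.53 to 0.61, those of B634 and B636 fall, and that of H249 stays between -0.07 and 0.18.

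Across the 15181 genes that averaged 0.1 FPKM or more, the correlation of log2(FPKM + 0.1) between mice had a median Pearson r of 0.961 over the 6 pairs. It was lowest between B607 and B634 (0.934) and highest between B634 and B636 (0.969). These values are across genes, which are not independent replicates, and they rest on the shared ranking of the genes by level. Between B607 and B634, 2415 of the 9740 nuclear protein-coding genes were at least 2-fold higher in B607 and 199 at least 2-fold higher in B634, while between B634 and B636 the numbers were 100 and 282.

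The steadiest nuclear protein-coding genes at 10 FPKM or more had roles of several kinds. Pgp, a phosphatase of glycolytic by-products, was at 24.1, 24.1, 23.4 and 23.9 FPKM, a CV of 1.37%, and Arl1, a small GTPase of the Golgi, at 30.3, 29.6, 29.1 and 29.9 FPKM. The proximal tubule gene Slc27a2 and Sar1b, Map1lc3a, Strn3, Dym, Map2k2 and Rae1 had CVs of 2.18% to 3.52%. Such low values were chosen from 2821 genes, and after length matching the CVs of these 10 genes were 8.16% to 22.6%. As the genes were chosen on the deposited scale, the choice alone would raise their CVs on another scale. No conclusion on their steadiness is drawn from this rise.

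The most variable genes at 10 FPKM or more were mostly high in 1 mouse. Oxct1, which burns ketone bodies, was at 156, 23.4, 23.5 and 65.6 FPKM (CV 93.0%), Ces1g, a carboxylesterase, at 62.3, 3.86, 10.9 and 16.9 FPKM, and Atp11a, a lipid flippase, at 47.4, 6.28, 7.97 and 9.78 FPKM. All these were highest in B607. Serpina1d, a protease inhibitor of a gene cluster with close copies, was highest in H249, at 22.0, 12.2, 6.19 and 83.9 FPKM.

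Others of this group lie in loci where the division of fragments is uncertain. Ugt1a1, at 64.7, 7.55, 6.20 and 3.44 FPKM, shares its last exons with the other genes of its locus, of which Ugt1a7c was at 107, 15.4, 32.9 and 70.9 FPKM. Gm20708, a gene model that overlaps Afmid and Syngr2, was at 0.642, 50.5, 0.444 and 44.3 FPKM, and Afmid at 25.3, 3.39, 24.9 and 6.06 FPKM, high where the other was low. Hist2h2aa1, a histone gene, was listed at 0 in B607 and at 107, 124 and 21.7 FPKM in the other mice, next to a near-identical copy, and Tpm3-rs7 was at 29.7, 24.3, 1.93 and 4.06 FPKM.

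Cldn2, the claudin of the proximal tubule that lets sodium and water pass between cells, is overlapped by no other gene listed in the libraries. Its values were 150, 26.7, 0.0149 and 93.3 FPKM, and that of B636 was under the 0.0599 FPKM that 3 fragments give there. Other genes of the proximal tubule were measured in B636, with Slc34a1 at 1924 FPKM. The S1 and S2 list had a mean deviation of 0.06 in B636 and the S3 list, lowest there in 5 of 7 genes, one of -0.68. In B636, H6pd, which supplies NADPH inside the endoplasmic reticulum, was at 4.67 FPKM against 22.2 to 54.4 FPKM in the others, and Ctns, the cystine exporter of lysosomes, at 1.56 FPKM against 5.71 to 6.55 FPKM. The zinc carrier Slc39a7 was at 1.51 FPKM in B636 against 5.96 to 9.03 FPKM, where Gm20427, which overlaps it on the same strand, was at 3.31 FPKM against 0.540 to 1.36 FPKM. Arfip1 was low in B636 (0.667 against 6.34 to 7.29 FPKM), where the overlapping gene model Gm37240 was at 3.35 FPKM, against at most 0.197 FPKM in the others.

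Over the 4782 nuclear protein-coding genes that averaged 5 FPKM or more, 148 were at least 2-fold higher in B607 than in every other mouse and 24 at least 2-fold lower. In B634 these numbers were 1 and 54, in B636 1 and 21, and in H249 16 and 7. After length matching they were 57 and 34 in B607, 3 and 28 in B634, 1 and 20 in B636, and 12 and 12 in H249. The single mouse above the others was most often B607 on both scales, and the single mouse below them most often B634 as deposited and B607 after length matching.

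In B607, Tnpo1, a nuclear import receptor, and Eif4ebp2, a brake on translation, stood furthest above the other mice beside Ugt1a1, Slc8a1 and Atp11a, at 16.3 and 28.0 FPKM against at most 2.45 and 5.16 FPKM. Furthest below were Hist2h2aa1, Hba-a1, Rasl11a (3.35 FPKM against 8.29 to 9.53 FPKM), Vim, vimentin (2.54, 6.25, 6.51 and 8.22 FPKM), and Cyp27b1, which makes active vitamin D in the proximal tubule, at 0.925, 8.69, 9.37 and 3.13 FPKM. Its gap to the next mouse was -1.66 on the log2 scale as deposited and -1.67 after length matching.

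In B634, Igfbp4, which binds insulin-like growth factors, was at 15.96 FPKM against 123 to 161 FPKM in the others, Retreg3 at 0.898 against 6.57 to 12.8 FPKM, the cholecystokinin receptor Cckar at 0.818 against 6.02 to 18.04 FPKM and Ufsp1 at 0.791 against 5.29 to 9.20 FPKM. Furthest above were Fbln5, Igfbp3 (20.8, 39.2, 23.6 and 16.9 FPKM), and the gene models Gm20390 and Gm21981, which overlap other genes. Fbln5 and Igfbp3 are made by the stroma and vessels of the kidney.

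In H249, the organic anion carriers Slc22a19 and Slc22a13 (9.06, 6.92, 3.68 and 27.7 FPKM), Mettl7a2 (3.47, 2.45, 1.18 and 15.0 FPKM), Serpina1d and Serpina1f (4.24, 5.04, 1.64 and 21.5 FPKM) stood furthest above. Mettl7a2 is overlapped on the same strand by Methig1, which was at 1.29, 0.263, 0.289 and 5.05 FPKM, also highest in H249. Furthest below were Gm11127, of a cluster of similar MHC genes, at 0.406 against 10.6 to 14.7 FPKM, the mitochondrial adenylate kinase Ak4 at 1.94 against 7.46 to 21.9 FPKM, Rab11b, Ski and Cdc42se1. The genes furthest above the others in B636 had smaller gaps, with Rnasek, which Gm21988 overlaps on the same strand, at 106 FPKM against 32.5 to 44.4 FPKM, Mdk at 29.8 against 15.9 to 16.5 FPKM, and 2310061I04Rik, Lyz2 and Mif4gd at up to 1.79-fold.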

How the data were processed

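The authors sequenced paired-end TruSeq libraries of kidney cortex on a HiSeq Xten, removed rRNA reads, aligned with Hisat2 to GRCm38 and computed the deposited FPKM with StringTie. The annotation release, strand use and treatment of multimapped reads are not given in the sources used here. The deposited FPKM were used as they are, with no filter beyond those stated. The members were taken by label, but members, gene lists and choices were set with earlier results of these data known. Symbols, positions and the longest transcript of each gene came from GENCODE M21 (21665 of 21792 genes matched). Depth was recovered from values under 0.3 FPKM of genes with 1 transcript, and 94.5% to 95.5% of these were whole fragments within 0.05. Depths and floors (3 fragments) cover counting error only. Nuclear copies of mitochondrial genes were found with BLAST 2.17.0. Log values are log2(FPKM + 0.1). Length matching used 10 classes of longest transcript and was chosen after the data were seen.

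Named genes were the 20 with the highest mean, the 20 highest nuclear protein-coding and 20 highest solute carrier genes, members of 43 fixed lists (302 genes), the 10 largest and 10 smallest CVs at 10 FPKM or more, and for each mouse the 5 genes furthest above and 5 furthest below the others at 5 FPKM or more. Gene lists held cell types, pathways, clock, stress, injury, proliferation, interferon and reference genes. The length classes, depths and single-mouse counts were tested on simulated data of 9740 genes. In these, 100% of 200 genes changed in 1 mouse were found and 50 others also passed 2-fold. The planted changes were much larger than 2-fold, so the 100% does not hold for changes near 2-fold. The random spread set between simulated mice was below the median SD of 0.252 (log2) observed after length matching. The 50 can therefore be too low for the real mice. The single-mouse counts reported are over 4782 genes, so the 50 are not directly comparable with them. Python 3.11.15, numpy 2.4.6, pandas 2.3.3 and matplotlib 3.10.9 were used. Some genes the rule names, and a search of promoters, are not reported here. Genes with near-identical copies or overlapping genes are uncertain. Genes outside this rule (copies and overlapping genes) were chosen after their values were seen.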

Additional observations from a re-analysis of the deposited data

Results flagged for a closer look

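A value is listed here where 1 mouse lay far from the other 3, with a gap to its nearest neighbour beyond Dixon's critical value for 4 values. Chance gives such a gap in about 1 in 20 groups of values. It was found for 559 of the 9740 nuclear protein-coding genes at 1 FPKM or more (5.74%), of which 365 had B607 as the far mouse, 95 B634, 43 B636 and 56 H249. Of the 230 genes named in the text 24 met it (10.4%), and as many of these genes were named for standing apart in 1 mouse, this share is not comparable with the former. After length matching 649 of the 9740 genes met it (6.66%), with B607 as the far mouse in 386. Of the 24 named genes 11 still met it, namely Aqp5, Atp11a, Eif4ebp2, Gm13341, Gm37240, Odc1, Rnasek, Slc14a2, Slc8a1, Tnpo1 and Ugt1a1. Of these, Aqp5 and Slc14a2 were at 0 in the other 3 mice, so that length matching could not change their gap. The other 13 of the 24 did not meet it after length matching, which does not mean that every gap closed. Arfip1 was then still low in B636, at 6.48, 7.61, 0.692 and 6.39, and Mettl7a2 still high in H249, at 3.37, 2.86, 1.18 and 13.2. For others the gap was smaller, as for Slc22a6, at 333, 282, 275 and 231.

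B607 was far above the other mice for Odc1 (650 FPKM), Slc22a6 (409 FPKM), Ugt1a1 (64.7 FPKM), Atp11a (47.4 FPKM), Slc26a4 (38.3 FPKM), Eif4ebp2 (28.0 FPKM), Slc8a1 (23.3 FPKM), Tnpo1 (16.3 FPKM), Flt1 (4.42 FPKM) and Trpm6 (4.23 FPKM), and far below them for the Y-linked Eif2s3y (3.93 FPKM) and the pseudogene Gm13341 (0.0850 FPKM). B634 was far below the others for Aqp6 (12.3 FPKM) and in its number of genes above 0, which was 16690. It was far above them for Aqp5 (0.0471 FPKM) and in the summed FPKM of the fat genes (0.225 FPKM), both near the level of a few fragments.

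B636 was far above the others for Slc5a2 (116 FPKM), Rnasek (106 FPKM), Mdk (29.8 FPKM), 2310061I04Rik (13.2 FPKM), Mif4gd (9.48 FPKM) and Gm37240 (3.35 FPKM), and far below them for Ctns (1.56 FPKM) and Arfip1 (0.667 FPKM). H249 was far above the others for Mettl7a2 (15.0 FPKM) and for Slc14a2 (0.018 FPKM), which was at 0 in the other mice.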

How the results depend on the processing

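No paired analysis was possible because all 4 mice belong to 1 group. Leaving out each mouse in turn gave 10069 to 10432 genes at 1 FPKM or more, a mitochondrial share of 46.57% to 53.88%, a share of the 20 leading genes of 59.04% to 67.13%, a median CV of 18.23% to 26.69%, 482 (without B607) to 1767 (without H249) genes with a CV of at least 50%, a median r of 0.9402 to 0.9675, a nephron share of 13.74% to 15.33%, a solute carrier share of 2.819% to 3.481%, a respiratory chain share of 4.165% to 4.403% and immune sums of 386.3 to 444.8 FPKM. A minimum of 5 FPKM left 4973 genes, 430 of them with a CV of at least 50%, and a minimum of 0.1 FPKM gave 2879 such genes. Weighting FPKM by length gave a mitochondrial share of 34.24% and a share of the 20 leading genes of 43.7%. On unweighted FPKM the latter was 35.02% over nuclear genes alone, and 27.69% when the copies of mitochondrial genes were also left out. The same FPKM total in every mouse gave a median CV of 38.62% and 3150 variable genes, the median of ratios 738 variable genes, log2(FPKM + 1) a median CV of 19.43%, and length matching, chosen after the data were seen, 18.31% and 587 genes. The median r was 0.9305 with a pseudocount of 0.01 and 0.977 with no filter. The nephron share was 3.095% without the most abundant gene of each list, 7.114% of the total with mitochondrial genes, 17.94% of nuclear protein-coding FPKM and 17.11% without the copies of mitochondrial genes. The total with mitochondrial genes gave 1.645% for solute carriers and 2.099% for the respiratory chain, which was 4.971% without the copies. The immune sum was 234.2 FPKM without the most abundant gene of each list. Of 128 deviations of lists in single mice, 107 kept their sign after length matching and 21 did not. Depth limits genes below 3 fragments.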

Other observations

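Other gene groups, chosen after values were seen, also differed between the mice. Of 12 genes of sterol and fatty acid synthesis, 11 were highest in B607 and 11 lowest in B634, and 8 and 9 after length matching. Over all nuclear protein-coding genes at 1 FPKM or more, 53.6% were highest in B607 and 63.2% lowest in B634, and 36.2% and 29.4% after length matching. Fads2, a fatty acid desaturase, was at 111, 15.2, 22.7 and 54.7 FPKM, and Sqle, which opens the sterol branch, at 7.74, 1.82, 3.17 and 4.71 FPKM. Hmgcs1, the most abundant, varied less, at 143, 91.8, 117 and 116 FPKM. The mean deviation of the list was 0.95, -0.90, -0.42 and 0.38 on the log2 scale, and 0.58, -0.57, -0.31 and 0.30 after length matching.

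Of the vitamin D genes, Cyp24a1, which breaks active vitamin D down, was at 3.56, 1.28, 8.09 and 6.92 FPKM, while Cyp27b1, which makes it, was at 0.925, 8.69, 9.37 and 3.13 FPKM. The receptor Vdr and the co-receptor Kl (klotho) were both highest in B607, at 63.6 and 113 FPKM, and lowest in B634, at 19.5 and 39.8 FPKM.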
